A study of Mus musculus with 6 samples.

Results

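The cell cycle genes of the mouse small intestine were taken as the genes of the deposited expression table whose KEGG pathway column lists the cell cycle map (map04110). The column held 278 of the 54012 genes in the table. Of these, 122 are protein-coding genes with a place in the cycle and were sorted by role into DNA replication, mitosis, inhibitors of cyclin-dependent kinases (CDK) and the remaining regulators. The other 156 got no role, and 136 of them are annotated as pseudogenes. The table comes from RNA sequencing of bulk small intestine of 6 mice aged 8 to 12 weeks, of which 3 are labelled wild type (WT) and 3 TLR4ΔIEC. The question, per the series title, is what loss of TLR4, which senses bacterial lipopolysaccharide, does to gene expression in the intestine. The labels name no promoter, Cre line, strain, sex or stretch of small intestine, and list no treatment for either group. Values are in TPM, transcript abundances scaled for gene length and to the same total in each library.

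The cell cycle is driven by cyclins, which appear and disappear in turn and activate CDKs. D-type and E-type cyclins take a cell past the retinoblastoma protein into DNA synthesis, for which origins of replication are licensed by the ORC and MCM proteins, and cyclin B with Cdk1 takes it into mitosis, which ends when the anaphase-promoting complex marks cyclin B and securin for destruction. In the epithelium of the small intestine, division takes place in the crypts, where stem cells and transit-amplifying cells lie, and cells leave the cycle as they move onto the villus, so that in bulk tissue these transcripts come from a minority of cells. Fewer dividing cells and less RNA per dividing cell cannot be told apart in bulk samples.

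The promoters of 4 members on which the results below turn are printed here to show the elements by which cell cycle genes are known to be timed. They are the 250 bases before the RefSeq start of Cdk1 (the mitotic kinase, chr10:69352913-69353162, minus strand), Ccnb2 (cyclin B2, chr9:70421555-70421804, minus strand), Mcm6 (a subunit of the replicative helicase, chr1:128359706-128359955, minus strand) and Cdkn2b (the CDK inhibitor p15, chr4:89311033-89311282, minus strand), from RefSeq on GRCm38.p6, written 5′ to 3′ along the gene. Capitals mark 3 strings searched on both strands: TTTGAA, the letters of the cell cycle genes homology region, TTTNNCGC, an E2F-type element, and CCAAT, the box that NF-Y binds (ATTGG on the other strand).
Cdk1: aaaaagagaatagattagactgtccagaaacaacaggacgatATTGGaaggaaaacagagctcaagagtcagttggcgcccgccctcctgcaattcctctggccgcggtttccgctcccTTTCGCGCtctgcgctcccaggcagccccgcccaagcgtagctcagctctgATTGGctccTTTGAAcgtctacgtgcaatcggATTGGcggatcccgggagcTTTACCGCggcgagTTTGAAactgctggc
Ccnb2: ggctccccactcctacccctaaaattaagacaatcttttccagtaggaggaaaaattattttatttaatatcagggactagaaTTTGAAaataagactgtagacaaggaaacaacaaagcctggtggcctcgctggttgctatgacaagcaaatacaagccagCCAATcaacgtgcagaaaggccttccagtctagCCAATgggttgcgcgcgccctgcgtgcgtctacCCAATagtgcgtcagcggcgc
Mcm6: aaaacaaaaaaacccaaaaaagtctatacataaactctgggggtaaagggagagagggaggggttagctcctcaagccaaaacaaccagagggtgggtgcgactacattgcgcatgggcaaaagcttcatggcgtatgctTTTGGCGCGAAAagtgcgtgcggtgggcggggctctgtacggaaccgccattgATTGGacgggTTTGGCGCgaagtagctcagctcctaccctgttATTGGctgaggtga
Cdkn2b: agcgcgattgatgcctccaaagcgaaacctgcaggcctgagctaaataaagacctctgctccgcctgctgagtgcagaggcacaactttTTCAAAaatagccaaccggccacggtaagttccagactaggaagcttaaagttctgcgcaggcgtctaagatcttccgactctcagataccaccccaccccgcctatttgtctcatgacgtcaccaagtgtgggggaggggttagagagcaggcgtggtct
The Cdk1 window held 2 matches to TTTGAA, 2 to TTTNNCGC and 3 to CCAAT. That of Ccnb2 held 1 TTTGAA and 3 CCAAT, and that of Mcm6 held 3 TTTNNCGC, of which 2 overlap each other on opposite strands, and 2 CCAAT. The Cdkn2b window held 1 TTTGAA and neither of the other strings. A promoter entry was found for 98 of the 122 members with a role. TTTNNCGC was in 24 of these 98 (24.5%) and in 4.39% of all 27025 promoters in the table. It was most frequent in the replication genes, at 6 of 16 (37.5%), and in the G1/S genes, at 7 of 19 (36.8%). CCAAT was in 7 of the 8 matched genes of the cyclin B-Cdk1 group (87.5%), against 34.5% of all promoters, while TTTGAA was in 15.3% of the members and in 16.3% of all. The promoters were not matched for base composition, and a match describes letters only.

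Several features of the libraries touch every value below. Tlr4, the targeted gene, had 0.65, 0.57 and 0.70 TPM in WT against 1.29, 1.22 and 4.81 TPM in the TLR4ΔIEC libraries, so its transcript was not lower under that label, and TLR4ΔIEC here means the libraries labelled so. TLR4ΔIEC replicate 2 stood apart: 12221 of its genes reached 1 TPM (13197 to 13634 elsewhere), and its Rn18s level was 12836 TPM (3806 to 7032 elsewhere). Alpha-defensins took 25.3% to 28.7% of all TPM in WT against 18.4%, 5.21% and 6.61% in TLR4ΔIEC replicates 1, 2 and 3. TPM share a fixed total, and the 13458 tested genes had a median log2 fold change of 0.16, and role medians are read against it. Marker lists of gut position also moved with genotype: 7 proximal genes summed to 257.4 to 1099.2 TPM in WT against 31.6 to 100.8 TPM in TLR4ΔIEC, and 6 ileal genes to 3600.2 to 8450.4 and 11421.7 to 37426.9 TPM. The part of gut position in the results below was not tested. Read totals are not kept in TPM, so sequencing depth is unknown.

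Of the 278 members, 118 were at 0 in every library and 120 had a mean of at least 1 TPM and were tested, 116 of them with a role. No member passed the threshold in limma (0 of 120 at an adjusted p under 0.05, against 16 of 13458 genes, 0.119%), and the smallest adjusted p was 0.094, for Cdkn2b. At an unadjusted p under 0.05, 1 member, Ccnb2, was lower in TLR4ΔIEC and 13 were higher, shares to be read against 2.77% and 18.4% of all genes. All 3 TLR4ΔIEC values lay below all 3 WT values for 3 members, namely Ccnb2, Chek2 and Tgfb3, where 3.53% of all genes did so, and above them for 20 members, where 24.1% of all genes did so. In neither direction did the members exceed the share of all genes. The split depended on the scaling. With median-of-ratios scaling, which sets the typical gene equal between libraries, 15 of 120 members were lower without overlap and 4 higher (12.5% and 3.33%), against 8.43% and 10.8% of all genes. Quantile normalization also gave 15 and 4 (8.57% and 11.1% of all genes). When TPM were rescaled without the 20 highest genes, the counts were 8 and 13 of 122 (6.72% and 13.1%), and without alpha-defensin, mitochondrial and 18S-like genes 15 and 2 of 122 (12.8% and 6.13%). Cdkn2b and E2f2 lay higher without overlap on TPM and under all 4 of these scalings, and Ccnb2 and Chek2 lay lower on TPM and under all 4. Anapc5, Cdc25b, Cdkn2c and Gadd45g overlapped on TPM but lay lower without overlap under all 4. Under 3 of the 4, Cdc20, Chek1, Mcm6, Myc, Rad21, Skp2 and Tgfb3 lay lower and Ywhah higher.

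Ordered by role, the median log2 fold change was lowest for the cyclin B-Cdk1 genes (−0.29, 9 tested) and highest for the CDK inhibitors (0.49, 7 tested). Replication genes lay at −0.053 (17), the spindle checkpoint at −0.14 (6), cohesin and separase at −0.071 (7) and the anaphase-promoting complex at 0.25 (16), and all 38 mitosis genes together at −0.017. The G1/S regulators lay at 0.051 (28), the checkpoint, p53 and 14-3-3 genes at 0.12 (16) and the SCF ligase with the TGF-beta and GSK3 inputs at 0.13 (10). Measured from the median of all genes, replication stayed between −0.49 and −0.077 over the 18 alternative analyses and cyclin B-Cdk1 between −0.64 and −0.22, and the spindle checkpoint between −0.50 and −0.16, all below 0 in each. Not all of the 18 could change these medians. The fits without trend, with robust variance and with the replicate block leave each fold change as it was. A scaling of whole libraries shifts all genes nearly alike, so little of it remains once the median of all genes is taken off. The inhibitors stayed above it, but between 0.009 and 0.47, the low end being that of a filter at a mean of 5 TPM, which leaves out Cdkn1c and Cdkn2a.

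**Figure D1:**
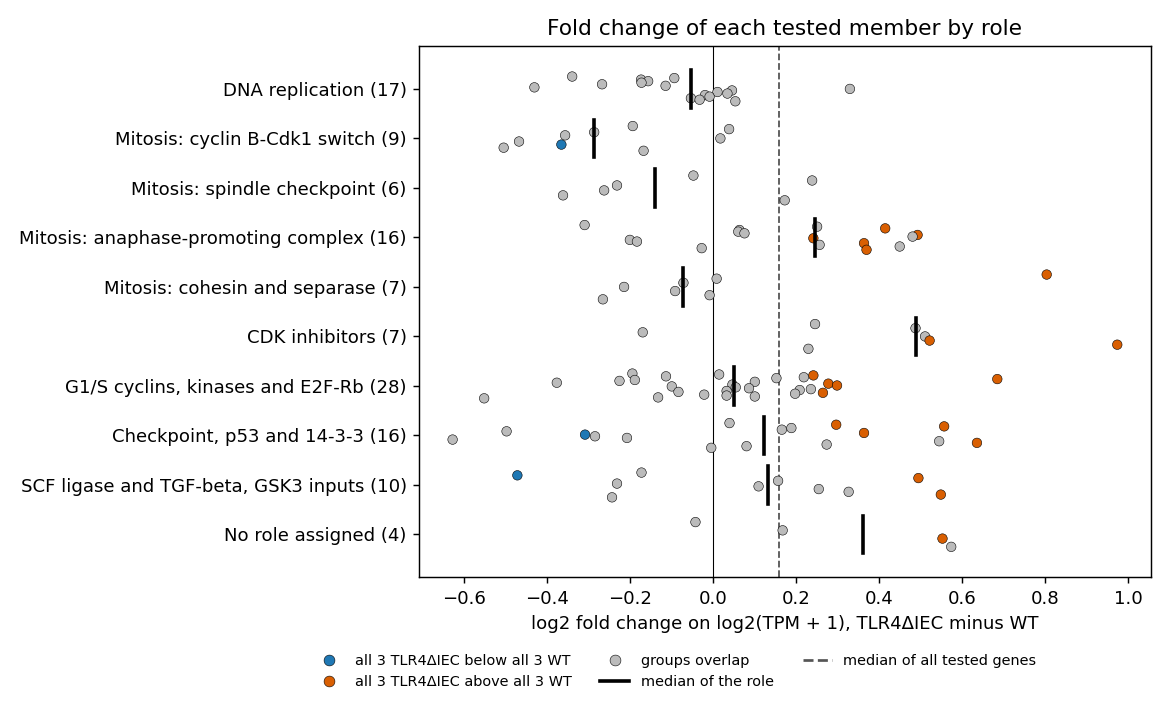
Log2 fold change on log2(TPM + 1), TLR4ΔIEC minus WT, of each of the 120 tested members (points) by role, with the median of each role (black bar) and of all 13458 tested genes (dashed line, 0.16). Orange and blue points are members whose groups do not overlap, 20 higher and 3 lower, and the cyclin B-Cdk1 genes lie left of the dashed line in all 9 cases.

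The replication genes, which license and fire origins, had a median fold change of −0.21 relative to all genes and spread widely among the TLR4ΔIEC libraries. None of the 17 had groups that did not overlap, and 16 of 17 had a fold change below the median of all genes. In TLR4ΔIEC replicate 1, 13 of 17 lay above all 3 WT libraries, where 52.7% of all genes did so. In replicate 2, 14 of 17 lay below all 3, where 35.2% of all genes did so, and in replicate 3, 8 of 17, where the share of all genes was 15.1%. The opposite shares for these libraries, over all genes, were 12.3% below in replicate 1, 42.1% above in replicate 2 and 58.2% above in replicate 3, where the replication genes had 0, 1 and 1 of 17. With median-of-ratios scaling 10 of 17 lay above all WT in replicate 1, where 28.5% of all genes did so, and 13 and 15 of 17 lay below all WT in replicates 2 and 3, where 32.7% and 32.1% did so.

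Mcm6 (ENSMUSG00000026355, chromosome 1, 128331590 to 128359664, minus strand, GRCm38), whose promoter with 3 E2F-type matches is printed above, is a helicase subunit that is loaded at origins. It lay at 30.00, 30.99 and 26.29 TPM in WT against 30.57, 18.95 and 16.57 TPM in TLR4ΔIEC. Replicate 1 was within the WT range and the other two were below it, which gave a log2 fold change of −0.43 (SE 0.23, adjusted p = 0.335). Mcm5, another subunit, was at 21.57, 21.92 and 15.97 TPM in WT against 28.17, 14.39 and 13.14 TPM in TLR4ΔIEC (−0.16, SE 0.29, adjusted p = 0.804). Here replicate 1 was above all WT libraries and the other two were below them, so the groups overlap while 3 of 3 values lie outside the WT range. Mcm2 had the same order, with 13.53, 14.36 and 12.03 TPM in WT against 17.97, 9.72 and 8.97 TPM in TLR4ΔIEC (−0.17, SE 0.26). Mcm4 also did, at 9.11 to 11.51 TPM in WT against 13.08, 6.47 and 6.24 TPM in TLR4ΔIEC.

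The factors that assemble and activate the helicase varied likewise at lower levels. Cdc45, part of the active helicase, was at 5.93, 7.25 and 5.57 TPM in WT against 6.67, 4.96 and 3.06 TPM in TLR4ΔIEC (−0.34, SE 0.26, adjusted p = 0.494). Cdc6, the loader, was at 2.28 to 2.68 TPM in WT against 2.88, 1.49 and 1.98 TPM in TLR4ΔIEC, and Orc1, the largest subunit of the origin recognition complex, at 1.04 to 1.73 and at 2.47, 1.26 and 0.91 TPM. In both, replicate 1 was the highest of all 6 libraries. Pcna, the sliding clamp of DNA polymerase and the most abundant member of the role, lay at 63.03, 73.35 and 69.71 TPM in WT against 87.38, 62.43 and 65.14 TPM in TLR4ΔIEC (0.046, SE 0.17, adjusted p = 0.899), with overlap. Not all genes of the role had this order, as 8 of 17 lay below all WT libraries in replicate 3. Orc6, at 8.50 to 12.65 TPM in WT against 11.22, 7.16 and 10.46 TPM in TLR4ΔIEC, had only replicate 2 outside the WT range. Mcm3 and Orc4 were also among the exceptions. Mcm3 was flat at 19.81 to 23.62 TPM in WT against 19.82 to 23.79 TPM in TLR4ΔIEC, and Orc4 had the highest fold change of the role at 0.33 (SE 0.30, adjusted p = 0.564), with 14.13, 5.98 and 11.13 TPM in TLR4ΔIEC against 6.72 to 9.13 TPM in WT.

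**Figure D2:**
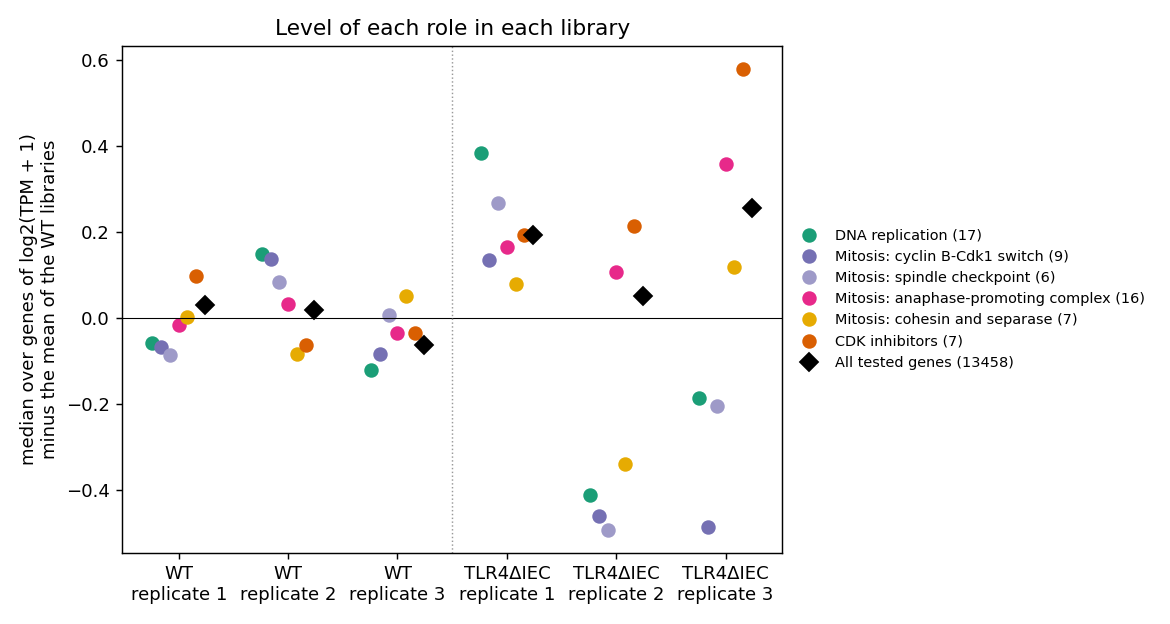
Median over the genes of each replication, mitosis and inhibitor role, and of all tested genes (black diamonds), of log2(TPM + 1) minus the mean of the WT libraries, in each of the 6 libraries. The replication median lies at 0.38 in TLR4ΔIEC replicate 1, −0.41 in replicate 2 and −0.19 in replicate 3, while that of the inhibitors lies at 0.19, 0.21 and 0.58 and that of all tested genes at 0.19, 0.05 and 0.26.

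The genes of the switch into mitosis had the lowest median fold change of any role. All 9 tested genes of the cyclin B-Cdk1 group had a fold change below the median of all genes. In TLR4ΔIEC replicates 2 and 3, 7 and 7 of the 9 lay below all WT libraries, where 35.2% and 15.1% of all genes did so. In replicate 1, 5 of 9 lay above all WT libraries, near the 52.7% of all genes that did so. That count was 3 without the 20 highest genes, where 41.3% of all genes lay above. It was 0 under the other 3 scalings, where 28.4% to 28.8% of all genes did. The group median, as log2(TPM + 1) from the WT mean, was 0.13, −0.46 and −0.49 in replicates 1, 2 and 3, against 0.19, 0.05 and 0.26 for all genes. Ccnb2 (ENSMUSG00000032218, chromosome 9, 70407692 to 70421547, minus strand), whose promoter above holds 3 CCAAT boxes, encodes a B-type cyclin. It lay at 30.20, 34.22 and 28.82 TPM in WT against 25.07, 26.37 and 20.48 TPM in TLR4ΔIEC, so each TLR4ΔIEC value was below each WT value. The difference was −0.37 on the log2 scale (SE 0.15, adjusted p = 0.226). It was the one gene of the group in which replicate 1 did not lie within or above the WT range.

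Ccnb1, the other mitotic B-type cyclin, lay at 15.68, 19.10 and 18.18 TPM in WT against 19.57, 10.65 and 8.40 TPM in TLR4ΔIEC (−0.50, SE 0.29, adjusted p = 0.362). Its partner Cdk1 (ENSMUSG00000019942, chromosome 10, 69335146 to 69352938, minus strand) lay at 44.34, 62.80 and 48.30 TPM in WT against 68.43, 42.43 and 30.68 TPM in TLR4ΔIEC (−0.19, SE 0.29, adjusted p = 0.75). In both genes replicate 1 was the highest of all 6 libraries and replicates 2 and 3 were the lowest. Wee1, the kinase that holds Cdk1 inactive, had the same order as the kinase it restrains, with 6.36, 7.25 and 6.02 TPM in WT against 7.26, 3.84 and 3.04 TPM in TLR4ΔIEC (−0.47, SE 0.28, adjusted p = 0.381). Ccna2, cyclin A2, was at 22.41 to 32.00 TPM in WT against 27.07, 17.06 and 18.83 TPM in TLR4ΔIEC (−0.36, SE 0.22). Cdc25b, a phosphatase that activates Cdk1, was at 10.44 to 11.22 TPM in WT against 10.48, 6.96 and 8.95 TPM in TLR4ΔIEC. Plk1, a kinase of mitotic entry and exit, was at 18.29, 23.09 and 16.75 TPM in WT against 24.39, 22.36 and 13.43 TPM in TLR4ΔIEC (0.018, SE 0.25). This is near 0 but below the median of all genes, 0.16, and it turned to between −0.12 and −0.29 under the 4 other scalings. Pkmyt1 had the highest fold change of the group, 0.039.

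The spindle checkpoint, which delays anaphase until chromosomes are attached, was described by 6 genes, none with groups that did not overlap. Bub1b, its BubR1 kinase, was at 8.54, 9.83 and 8.88 TPM in WT against 11.67, 5.16 and 5.18 TPM in TLR4ΔIEC (−0.36, SE 0.30, adjusted p = 0.527), replicate 1 again the highest of all and the other two the lowest. Bub1 had the widest split, with 2.30 to 3.11 TPM in WT against 5.56, 1.36 and 2.12 TPM in TLR4ΔIEC. Bub3 and Mad2l2 differed from them, with fold changes of 0.17 and 0.24. Mad2l2 was put in this role by the hand-written list, but it is a relative of Mad2 and not a core part of the checkpoint.

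The anaphase-promoting complex, the ubiquitin ligase that ends mitosis, was the one mitotic role whose median exceeded that of all genes, by 0.087 (0.005 to 0.22 over the alternatives). Of its 16 tested genes, 12 had a positive fold change, where 68.1% of all genes did, and 5 had TLR4ΔIEC values all above WT, where 24.1% of all genes did, so both counts are near the background. The 5 are Anapc2, Anapc7, Cdc14a, Cdc26 and Fzr1. The role as sorted also holds Cdc14a and Cdc14b, which encode phosphatases and not parts of the ligase, so the counts and the median are those of the role. The activators of the ligase differed from each other. Cdc20, which drives the complex in mitosis, was at 34.51, 40.74 and 35.65 TPM in WT against 36.47, 29.71 and 23.81 TPM in TLR4ΔIEC (−0.31, SE 0.18, adjusted p = 0.372), with overlap through replicate 1. Fzr1, the activator used in G1 and in cells that have left the cycle, was at 26.32, 24.20 and 22.14 TPM in WT against 28.11, 35.92 and 34.13 TPM in TLR4ΔIEC (0.41, SE 0.15, adjusted p = 0.182). The subunits Anapc2, at 17.97 to 24.55 TPM in WT against 25.85 to 31.84 TPM in TLR4ΔIEC (0.49, SE 0.17, adjusted p = 0.165), and Cdc26, at 25.50 to 29.79 and 33.84 to 36.93 TPM (0.37, SE 0.13, adjusted p = 0.174), were also apart. Each of the 5 stayed apart in at most 1 of the 4 other scalings. Fzr1 and Cdc26 overlap Mfsd12 and Slc31a1 on the opposite strand, and these neighbours also lay higher in TLR4ΔIEC, at 3.89 to 5.90 against 6.03 to 8.91 TPM for Mfsd12 and 48.47 to 56.35 against 62.85 to 109.02 TPM for Slc31a1. No source used here says whether counting used strand, so reads from bases shared by such pairs may have been counted for either gene. Overlap was called from whole gene spans, not exons.

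Among cohesin and separase, Pttg1 was the one gene whose groups did not overlap. It encodes securin, which holds separase inactive until anaphase, and lay at 33.84, 22.94 and 21.18 TPM in WT against 49.63, 52.40 and 35.45 TPM in TLR4ΔIEC (0.80, SE 0.23, adjusted p = 0.13). Its direction was opposite to that of Ccnb1 and Ccnb2, which the same ligase destroys. The groups overlapped under each of the 4 other scalings. Espl1, separase itself, was at 5.25, 5.37 and 2.46 TPM in WT against 7.89, 2.27 and 1.73 TPM in TLR4ΔIEC (−0.27, SE 0.48). The cohesin ring genes Rad21, Smc1a and Smc3 had fold changes of 0.009, −0.008 and −0.071, and all overlapped on TPM. Rad21 was lower without overlap under 3 of the 4 other scalings.

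**Figure D3:**
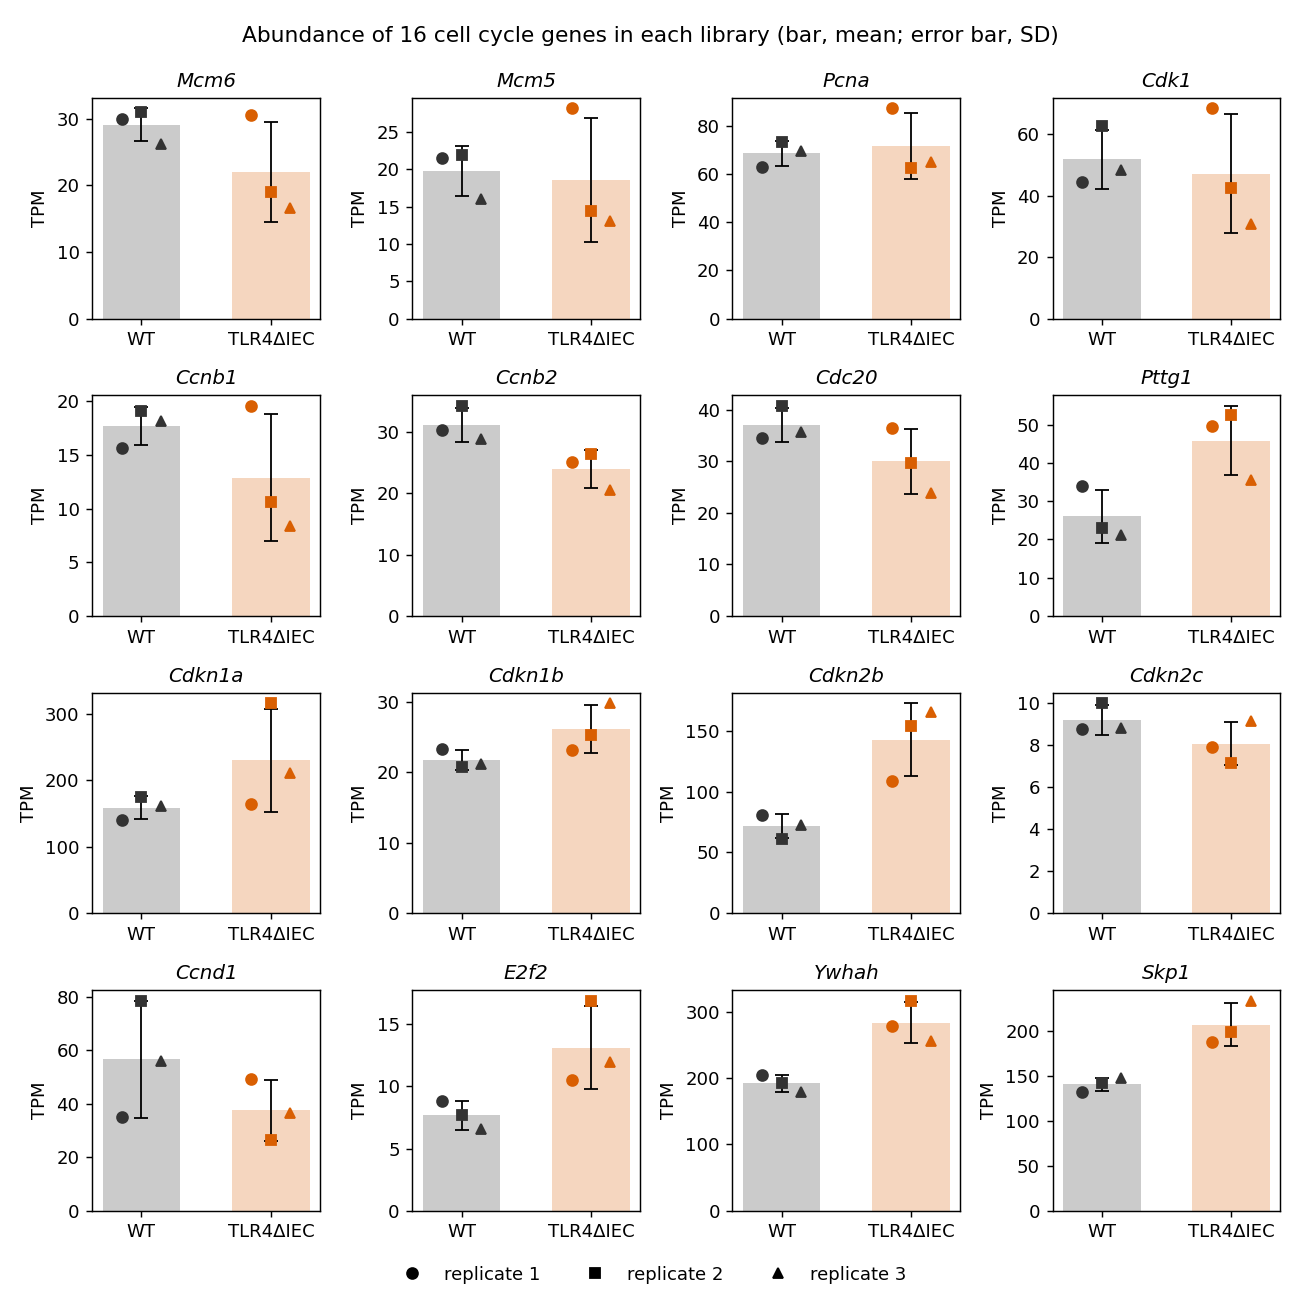
TPM of 16 members in each library (points, shaped by replicate), with the mean (bar) and SD (error bar) of the 3 WT and 3 TLR4ΔIEC libraries. For Mcm5, Pcna, Cdk1 and Ccnb1 the circle of TLR4ΔIEC replicate 1 is the highest point of the panel, while for Cdkn2b, Pttg1, E2f2, Ywhah and Skp1 all TLR4ΔIEC points lie above all WT points.

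The CDK inhibitors held the member with the smallest p-value. Of the 7 genes, 6 had a positive fold change, where 68.1% of all genes did. Of these 6, Cdkn1b and Cdkn2d turned negative when alpha-defensin, mitochondrial and 18S-like genes were left out of the scaling. All TLR4ΔIEC values lay above WT for 2 of the 7, Cdkn2a and Cdkn2b, a count near the 24.1% of all genes that did so. Cdkn2b (ENSMUSG00000073802, chromosome 4, 89306299 to 89311039, minus strand) encodes p15, an inhibitor of the kinases that partner D-type cyclins, and is known as a TGF-beta target. It lay at 81.10, 61.17 and 72.32 TPM in WT against 108.85, 153.65 and 165.82 TPM in TLR4ΔIEC, with means of 71.5 ± 9.99 and 143 ± 30.0 TPM (SD, n = 3 each), a ratio of 2.00. In limma the log2 fold change was 0.97 (SE 0.20, adjusted p = 0.094), which does not pass the threshold, and over the alternatives it ranged from 0.65 to 1.16 with adjusted p-values from 0.0367 to 0.362. The adjusted p of 0.0367 was reached without TLR4ΔIEC replicate 1, the lowest of the 3 TLR4ΔIEC libraries for this gene. Cdkn2a, which lies beside it (chromosome 4, 89274471 to 89294653, minus strand) and encodes p16 and p19Arf, was at 1.50, 0.81 and 0.90 TPM in WT against 1.61, 2.19 and 2.06 TPM in TLR4ΔIEC (0.52, SE 0.23, adjusted p = 0.248), apart by the small gap between 1.50 and 1.61 TPM.

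Cdkn1a, the p21 inhibitor induced by p53 and in cells leaving the cycle, was the most abundant of the role. It lay at 139.97, 174.73 and 161.08 TPM in WT against 164.32, 316.04 and 210.44 TPM in TLR4ΔIEC (0.49, SE 0.25, adjusted p = 0.308), where replicate 1 lay within the WT range. Cdkn1b, the p27 inhibitor, was at 20.73 to 23.29 TPM in WT against 23.11, 25.32 and 29.80 TPM in TLR4ΔIEC (0.25, SE 0.15, adjusted p = 0.376). Cdkn1c, p57, was at 2.69 to 4.40 and at 4.87, 3.62 and 7.89 TPM (0.51, SE 0.28, adjusted p = 0.349), and Cdkn2d, p19, at 6.47 to 7.13 and at 8.00, 6.13 and 11.31 TPM (0.23, SE 0.22, adjusted p = 0.591). Both overlapped, with replicate 3 the highest. Cdkn2c, p18, was the exception, at 8.75, 10.00 and 8.80 TPM in WT against 7.91, 7.16 and 9.17 TPM in TLR4ΔIEC (−0.17, SE 0.15, adjusted p = 0.572), and was lower without overlap under all 4 other scalings.

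Among the G1/S regulators the 3 D-type cyclins, which couple growth signals to the cycle, had fold changes of both signs. Ccnd1 was at 35.08, 78.58 and 55.99 TPM in WT against 49.33, 26.43 and 36.68 TPM in TLR4ΔIEC (−0.55, SE 0.33, adjusted p = 0.388), with a WT range of 2.24-fold, so its groups overlap widely. Ccnd2 was at 41.44, 44.79 and 42.23 TPM in WT against 60.94, 31.62 and 26.77 TPM in TLR4ΔIEC (−0.19, SE 0.29), replicate 1 the highest and the other two the lowest of all. Ccnd3 was at 19.76 to 24.42 TPM in WT against 24.21 to 26.93 TPM in TLR4ΔIEC (0.20, SE 0.14), a sign that turned under quantile normalization and without alpha-defensin, mitochondrial and 18S-like genes. Their partners Cdk4 (−0.11, SE 0.18) and Cdk6 (0.033, SE 0.29), cyclin E1 (Ccne1, 0.015, SE 0.20) and the gatekeeper Rb1 (0.10, SE 0.20) had adjusted p-values of 0.757, 0.962, 0.975 and 0.809.

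E2f2, a transcription factor that drives S phase genes, had the smallest p-value of the role. It was at 8.83, 7.67 and 6.53 TPM in WT against 10.50, 16.90 and 11.96 TPM in TLR4ΔIEC (0.69, SE 0.21, adjusted p = 0.144), with no overlap under any of the 4 other scalings either. E2f1, the related activator, was at 2.06 to 3.13 TPM in WT against 3.42, 2.18 and 1.81 TPM in TLR4ΔIEC (−0.099, SE 0.24, adjusted p = 0.855), an order like that of the replication genes. Cdc25a, the phosphatase that activates Cdk2, at 16.95 to 20.47 and 20.86 to 24.09 TPM (0.27, SE 0.14, adjusted p = 0.323), and the kinase Abl1, at 17.05 to 22.63 and 22.79 to 25.24 TPM (0.30, SE 0.15, adjusted p = 0.303), were apart by small gaps and overlapped under all 4 other scalings. Myc, the growth factor-induced regulator, was at 13.18 to 18.24 TPM in WT against 15.20, 8.25 and 12.61 TPM in TLR4ΔIEC (−0.38, SE 0.24, adjusted p = 0.41).

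Of the 7 genes of 14-3-3 proteins in the checkpoint role, which bind phosphorylated Cdc25 and other regulators, 4 lay higher without overlap and 3 overlapped. Over the whole role, 4 of 16 tested genes lay higher without overlap, near the 24.1% of all genes that did so. Ywhah, the eta form, was at 204.92, 192.87 and 178.50 TPM in WT against 279.18, 316.93 and 255.26 TPM in TLR4ΔIEC (0.56, SE 0.15, adjusted p = 0.116), so each TLR4ΔIEC library was above each WT library. Ywhaz, at 179.17 to 198.06 and 239.89 to 251.76 TPM (0.36, SE 0.13, adjusted p = 0.173), Ywhab, at 62.12 to 66.32 and 75.28 to 84.23 TPM (0.30, SE 0.12, adjusted p = 0.226), and the epithelial form Sfn, at 71.66 to 92.28 and 104.48 to 197.32 TPM (0.64, SE 0.26, adjusted p = 0.229), were apart in the same direction, although the sign of Ywhab turned under quantile normalization and without alpha-defensin, mitochondrial and 18S-like genes. Ywhah stayed apart in 3 of the 4 other scalings, Ywhaz and Sfn in 1 each and Ywhab in none. The other 3, Ywhae, Ywhag and Ywhaq, had fold changes of 0.17, 0.27 and −0.004. These genes also act outside the cycle, as adaptors in many signalling pathways. Gadd45a, a stress-induced gene downstream of p53, was at 39.70, 49.72 and 53.90 TPM in WT against 48.27, 89.28 and 78.14 TPM in TLR4ΔIEC (0.55, SE 0.25, adjusted p = 0.262). Gadd45g lay the other way, with overlap, at 19.9 to 35.42 TPM in WT against 20.84, 16.07 and 19.17 TPM in TLR4ΔIEC (−0.50, SE 0.22, adjusted p = 0.258). Gadd45b had a fold change of 0.04.

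The p53 core itself differed little. Trp53 was at 25.32 to 35.40 TPM in WT against 28.09 to 35.49 TPM in TLR4ΔIEC (0.081, SE 0.17), and Mdm2, its ubiquitin ligase, had a fold change of 0.19 (SE 0.21). Of the kinases of the DNA damage response, Chek2 was the one whose groups did not overlap. Chek2, the kinase downstream of Atm, was at 6.66, 6.04 and 5.20 TPM in WT against 5.07, 4.20 and 4.58 TPM in TLR4ΔIEC (−0.31, SE 0.17, adjusted p = 0.332), all below WT, and Chek1, its counterpart downstream of Atr, at 1.71 to 1.97 TPM in WT against 1.80, 0.94 and 1.34 TPM in TLR4ΔIEC (−0.28, SE 0.22, adjusted p = 0.507). Atm had the lowest fold change of all tested members, −0.63 (SE 0.34, adjusted p = 0.336), but its WT values, 4.49, 1.70 and 2.09 TPM, differed by 2.64-fold. Of its TLR4ΔIEC values, 2.06 TPM in replicate 1 lay within the WT range and 0.83 and 1.22 TPM in the other two lay below it.

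Of the SCF ligase, which removes CDK inhibitors and G1 cyclins, the shared adaptor Skp1 was at 132.44, 141.73 and 147.40 TPM in WT against 188.16, 198.30 and 233.83 TPM in TLR4ΔIEC (0.55, SE 0.14, adjusted p = 0.115), and the RING subunit Rbx1 at 27.40 to 32.36 and 36.94 to 47.64 TPM (0.50, SE 0.15, adjusted p = 0.143). Both were apart, but Skp1 in 2 and Rbx1 in 1 of the 4 other scalings. Skp2, the receptor that recruits p27 to this ligase, was at 2.65 to 2.87 TPM in WT against 2.79, 1.73 and 2.02 TPM in TLR4ΔIEC (−0.24, SE 0.20). Tgfb3, a ligand upstream of p15, was at 1.94, 1.73 and 1.14 TPM in WT against 0.87, 0.66 and 1.08 TPM in TLR4ΔIEC (−0.47, SE 0.24, adjusted p = 0.302), all near 1 TPM. Its receptor-activated mediator Smad3 had a fold change of 0.33 (SE 0.18) and the common mediator Smad4 one of −0.23 (SE 0.24).

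**Figure D4:**
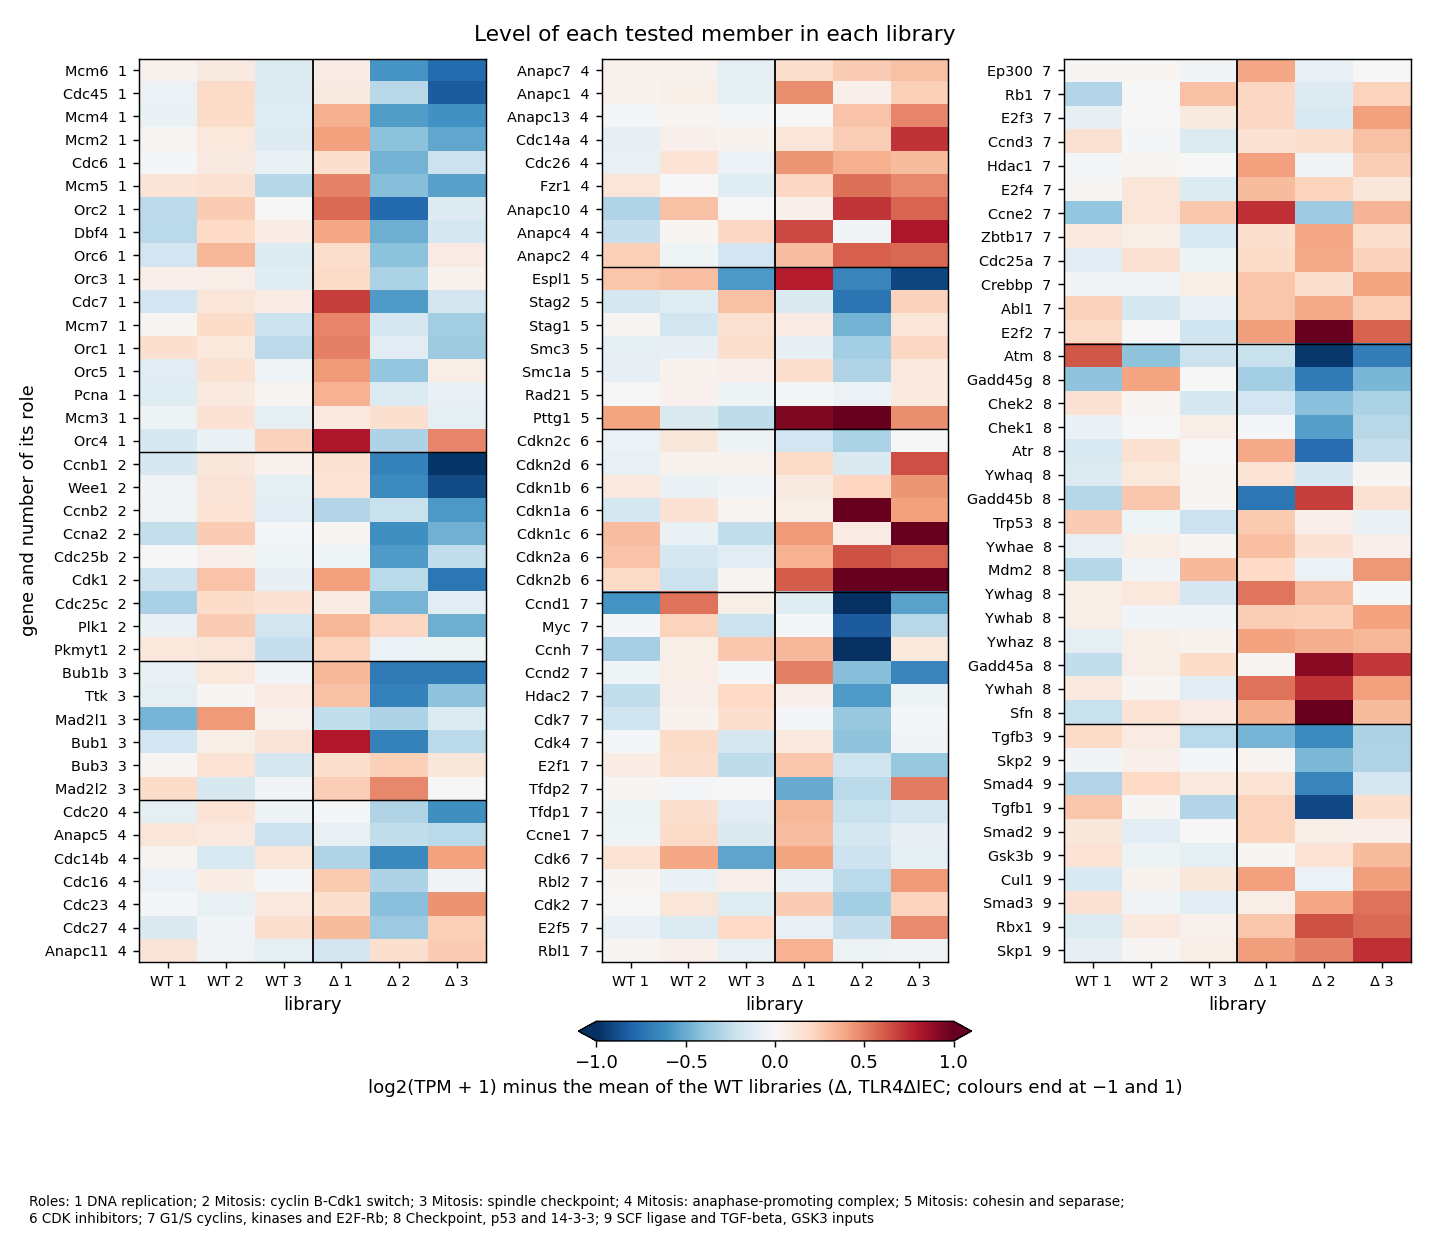
Log2(TPM + 1) minus the mean of the WT libraries for the 116 tested members with a role (rows, numbered by role and sorted by fold change within it), in the 3 WT and 3 TLR4ΔIEC libraries (columns). In the replication rows (1) the column of TLR4ΔIEC replicate 1 is mostly red, with 13 of 17 genes above all WT libraries, and that of replicate 2 mostly blue, with 14 of 17 below.

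Genes in general varied more among the TLR4ΔIEC libraries than among the WT libraries, the members included. The highest over the lowest TPM had a median of 1.25 in WT and 1.57 in TLR4ΔIEC over the 116 tested members with a role, and the ratio was wider in TLR4ΔIEC for 90 of them, near the 72.2% of all genes that were wider. Among the fits that left out 1 library, the one without TLR4ΔIEC replicate 1 had the most members and the most genes of all past either p-value threshold. In limma 367 of 13379 genes then passed the threshold (2.74%), among them 1 member, Cdkn2b (1.16, SE 0.16, adjusted p = 0.0367), and at an unadjusted p under 0.05 there were 12 of 119 members lower and 18 higher, in place of 1 and 13. Over all genes the shares in that fit were 5.7% lower and 21.7% higher, 27.4% in either direction. The members thus exceeded the share of all genes in the lower direction, but not in the higher direction or in both together. The replication median was then −0.33 and that of cyclin B-Cdk1 −0.41, against 0.15 for all genes. Single genes came close to the threshold: Ccnb1 had a fold change of −0.83 (adjusted p = 0.0617), Bub1b −0.71 (0.0667), Mcm6 −0.68 (0.0661) and Wee1 −0.77 (0.0741) below WT, and Gadd45a 0.81 (0.0646) above it. Without TLR4ΔIEC replicate 2, the library that stood apart, no member passed (smallest adjusted p = 0.177), the replication median turned to 0.073 and that of cyclin B-Cdk1 was −0.16, against 0.22 for all genes.

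One of 2 lists of division genes outside the KEGG column had an order of libraries like that of the replication genes. Its 31 proliferation genes, among them Mki67, Top2a and Birc5, summed to 557.1, 722.8 and 594.6 TPM in WT against 622.9, 502.7 and 466.0 TPM in TLR4ΔIEC, and their median, as log2(TPM + 1) from the WT mean, was 0.15, −0.41 and −0.40 in TLR4ΔIEC replicates 1, 2 and 3. None passed the threshold, 4 (Cdca3, Cenpa, Cenpf and Stmn1) were lower without overlap and 1 (Gins2) higher, where 3.53% and 24.1% of all genes were. A second list, of 31 tested genes with the same roles as the members but outside the column, had a median fold change of 0.11, with 1 lower and 8 higher without overlap, near the shares of all genes. It summed to 395.0 to 418.4 TPM in WT against 491.1, 516.5 and 535.2 TPM in TLR4ΔIEC, so by this sum no TLR4ΔIEC library was low. Ppp2r5c and Ppp2r5d were its most abundant genes, and Ppp2r5c was at 46.59 to 56.6 TPM in WT against 65.37, 94.61 and 105.85 TPM. The sum hides genes that went the other way. Aurkb was at 14.98 to 19.78 TPM in WT against 18.35, 13.98 and 11.22 TPM, and the 1 gene lower without overlap was Knl1. Markers of crypt cells differed between libraries too: 12 stem cell genes summed to 317.1 to 346.6 TPM in WT against 333.4, 145.3 and 154.5 TPM in TLR4ΔIEC replicates 1, 2 and 3. Olfm4 made up most of that sum and of the difference, at 194.40 to 198.56 TPM in WT against 164.89, 39.20 and 47.02 TPM, and Axin2 of the same list lay the other way without overlap, at 21.15 to 27.24 against 34.84 to 40.58 TPM. The 10 Paneth cell genes summed to 89577.9 to 107560.8 TPM in WT against 74071.7, 25902.8 and 35509.6 TPM. Defa22 and Defa24 were the most abundant of them in WT. Of the 10, 8 were lower without overlap, and 1, Reg3g, was higher, at 3910.17 to 8041.45 against 9907.74 to 12713.03 TPM. By their sums, the proliferation, stem cell and Paneth cell lists had TLR4ΔIEC replicate 1 within the WT range or nearest to it and the other two lower, while the second list did not.

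Lymphoid cells can also divide in the gut. The 12 germinal centre and B cell markers summed to 28.9 to 55.0 TPM in WT and to 87.0, 19.3 and 148.1 TPM in TLR4ΔIEC replicates 1, 2 and 3. The 10 T and NK cell markers, at 82.9 to 310.9 and 77.6 to 151.4 TPM, the 8 plasma cell markers, at 8592.6 to 9798.3 and 1397.8 to 4465.4 TPM, the 6 smooth muscle markers, at 267.4 to 712.5 and 185.7 to 672.5 TPM, and the 9 enterocyte markers, at 16022.8 to 18508.8 and 18860.4 to 23104.5 TPM, also varied. Single markers went against the sum of their list. Sdc1 of the plasma cell list was higher without overlap, at 54.64 to 77.98 TPM in WT against 96.0 to 152.42 TPM in TLR4ΔIEC. Apoa4 of the enterocyte list was lower without overlap, at 454.12 to 904.12 against 90.72 to 117.08 TPM. The part of cell makeup in the values of the members was not tested.

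The 156 members without a role carried little signal, summing to 17.1 to 19.4 TPM in WT against 21.6 to 30.1 TPM in TLR4ΔIEC, against 2914 to 3632 TPM for the 122 with one. Only 4 of them were tested. Of these Gm44985, a locus of uncertain kind that lies inside Plk1 on the opposite strand (chromosome 7, 122167029 to 122168044), was at 7.83, 8.08 and 9.17 TPM in WT against 10.84, 12.57 and 15.04 TPM in TLR4ΔIEC (0.55, SE 0.17, adjusted p = 0.141), apart from WT while Plk1 was not. As it is not known whether counting used strand, reads from bases it shares with Plk1 may have been counted for either gene. In all, 33 of the 120 tested members overlap another gene of at least 1 TPM, among them Ccna2, Ccnd1, Mcm7 and Tgfb3, whereas Cdkn2b, Ccnb2, Ccnb1, Cdk1, Mcm6, Pttg1 and E2f2 do not. The 6 members with a role that had a mean under 1 TPM were Smc1b, Prkdc, Ccna1, Wee2, Tgfb2 and Ccnb3, and Ccnb3 was listed at 0 in all 6 libraries.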

How the data were processed

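RNA sequencing was done on total RNA of small intestine from 3 WT and 3 TLR4ΔIEC mice (the design text gives 3 per genotype). Per the submitters' processing notes, fastp, HISAT, RSEM and GRCm38.p5 were used, with no settings or versions given. Per the file headers, the authors deposited a TPM matrix of genes by libraries, whose group means were not used. TPM keep no read totals, so counting intervals could not be formed, and an abundant gene lowers all others in its library.

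Members are rows whose pathway column lists map04110, sorted by hand-written role lists. The members and lists were chosen with earlier results of these data known. Tests ran on log2(TPM + 1) of genes averaging 1 TPM or more, a scale that understates the change of low genes. The test was limma 3.58.1 in R 4.3.3 (lmFit, eBayes with trend, two-sided, genotype alone) with Benjamini-Hochberg adjustment over all 13458 genes at 0.05, and it was tested on simulated data. Fold changes are TLR4ΔIEC minus WT. Lists are described by counts and medians, with no list test. The named genes are the members past the threshold, anchor genes chosen by name, all CDK inhibitors and up to 3 members per role of smallest p whose groups did not overlap. Other members and list genes were named after their values were seen. Gene coordinates are from GENCODE M21 (GRCm38), promoters from RefSeq. The 18 alternatives changed the pseudocount (0.1 or 5 TPM), the filter (none, or a mean of 5 TPM), the scaling (4 others), the variance model (no trend, robust, or array weights), added a replicate block, or left out each library in turn.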

Additional observations from a re-analysis of the deposited data

How the results depend on the processing

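No member passed the threshold in limma under any alternative except the fit without TLR4ΔIEC replicate 1, where 1 did, so the count ranged from 0 to 1 when libraries were left out. At an unadjusted p under 0.05 the main fit had 14 members and the alternatives 6 to 30. Of all genes, 2847 were past it in the main fit and 1619 to 3662 in the alternatives. Same-numbered libraries of the groups did not deviate together (correlations −0.037, 0.035 and 0.118). With the replicate block 0 members passed, and 12 of 120 had an unadjusted p under 0.05, as did 2435 of 13458 genes. With the block 1 gene of all passed, against 16 without it. Members with groups that did not overlap ranged from 3 to 28 lower and from 20 to 33 higher when single libraries were left out, 2 values in a group being less likely to overlap. The shares of all genes in these fits are not given here, so the ranges are not read as a result about the members. Under median-of-ratios scaling, quantile normalization, rescaling without the 20 highest genes and rescaling without alpha-defensin, mitochondrial and 18S-like genes the members without overlap numbered 15, 15, 8 and 15 lower and 4, 4, 13 and 2 higher. Of all genes, 8.43%, 8.57%, 6.72% and 12.8% were lower and 10.8%, 11.1%, 13.1% and 6.13% higher. In the same order of scalings, the median of all members turned to −0.096, −0.11, −0.12 and −0.25, that of mitosis was −0.16, −0.19, −0.18 and −0.32 and that of the inhibitors 0.34, 0.18, 0.32 and 0.17, while the median of all genes was itself 0.028, 0.018, 0.003 and −0.13. The mitosis median was 0.002 with a pseudocount of 5, 0.013 with a mean of at least 5 TPM and 0.027 with array weights, and that of the inhibitors 0.21 and 0.25 with the first 2 of these. With single libraries left out the medians ranged from −0.057 to 0.14 (all members), −0.33 to 0.073 (replication), −0.11 to 0.075 (mitosis) and 0.25 to 0.55 (inhibitors). The cause was not tested.

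Of 50 named genes, 31 kept their sign under all alternatives that gave a value and 19 did not. The sign could not change in the fits without trend, with robust variance or with the replicate block. Of 891 values, 828 kept sign and call, 1 (Cdkn2b) passed the threshold and 62 changed sign, most of them of genes near 0. Log2 fold changes that changed sign were, with median-of-ratios scaling, Ccne1 −0.11, Cdk6 −0.084, Orc1 −0.074, Pcna −0.10, Plk1 −0.12, Rb1 −0.042 and Trp53 −0.065. With quantile normalization they were Ccnd3 −0.039, Ccne1 −0.04, Pcna −0.27, Plk1 −0.21, Rb1 −0.088, Trp53 −0.19 and Ywhab −0.033. Without the 20 highest genes they were Ccne1 −0.13, Cdk6 −0.10, Orc1 −0.1, Pcna −0.13, Plk1 −0.15, Rb1 −0.063 and Trp53 −0.088. Without alpha-defensin, mitochondrial and 18S-like genes they were Abl1 −0.011, Ccnd3 −0.11, Ccne1 −0.26, Cdc25a −0.045, Cdk6 −0.23, Cdkn1b −0.066, Cdkn2d −0.058, Mdm2 −0.12, Orc1 −0.20, Pcna −0.28, Plk1 −0.29, Rb1 −0.21, Trp53 −0.24 and Ywhab −0.024. With array weights they were Ccne1 −0.068, Cdk6 −0.12, Orc1 −0.11, Pcna −0.014 and Plk1 −0.24, and with a pseudocount of 0.1 Orc1 −0.011. With single libraries left out, the values of genes that changed sign ranged from −0.48 to 0.039 (Mcm5), −0.24 to 0.20 (Orc1), −0.10 to 0.14 (Pcna), −0.49 to 0.072 (Cdk1), −0.14 to 0.27 (Plk1), −0.54 to 0.037 (Ccnd2), −0.22 to 0.032 (Cdk4), −0.23 to 0.23 (Cdk6), −0.13 to 0.11 (Ccne1), −0.29 to 0.04 (E2f1), −0.047 to 0.25 (Rb1) and −0.025 to 0.21 (Trp53).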
